A study of Mus musculus with 8 samples.

Results

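The control list of the study held 4432 of its 20732 N6-methyladenosine (m6A) peaks, and every peak of that list is described here. Its cells were RAW264.7, a mouse macrophage line, left untreated, with "none" as their treatment label. The other cells of the series received 100 μM TBP, TCP or TIP for 24 h and are not compared here. The control had 1 library of RNA immunoprecipitated with an anti-m6A antibody (Abcam ab151230) and 1 RNA input library, and the peaks are those deposited for the immunoprecipitated one. RNA fragments of 40 to 60 nucleotides were taken from a gel for the libraries.

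N6-methyladenosine is the most common internal methyl mark of mammalian messenger RNA. It is written on the nascent transcript by a nuclear complex built around METTL3 and METTL14, mostly within the sequence family called DRACH, of which GGAC is the core of the commonest form. It is bound by reader proteins such as those with a YTH domain, which affect splicing, decay and translation of the transcript, and it can be removed by the demethylases FTO and ALKBH5. In macrophages the mark has been studied on transcripts of innate immune sensing.

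With 1 library there was no replicate, and no test was made. Intervals are exact Clopper-Pearson 95% intervals, which cover counting error only. Peaks of 1 transcript share a source, and the list has no read counts, so the depth behind each peak is unknown. A gene without a peak may have had little RNA, since no expression value was used. Of 12 macrophage markers, 7 had a peak: Csf1r, Cd68, Mpeg1, Lyz2, Cd14, Spi1 and Fcgr1. Of 28 markers of T cells, B cells, neutrophils, fibroblasts, epithelium, endothelium and neurons, 0 had a peak. The exact interval is 0 to 12.3%, and the limit of 3 counts of the total, also used for a count of 0, is 10.7%. Over all protein-coding genes 11.2% had a peak, which lies inside the exact interval. These marker counts therefore do not establish what the cells are.

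Sequences could be read for the 28 peaks that lay wholly inside a RefSeq window around a transcription start (250 bases before to 50 after; RefSeq GRCm38.p6), of which 25 were annotated to 5′ UTRs and 3 to 3′ UTRs. They are a small and low-scored sample of the list, with a median rank of 3291 and 1 peak in its upper 10%. The letters GGAC were present in 6 of the 28 and missing from 22. The peaks below show the motif, here the letters GGAC alone, in its setting and in capitals. Each sequence is 5′ to 3′ on the strand of the peak. In the Ranbp1 peak the base after GGAC is G, which DRACH does not allow. Ncf1 encodes an NADPH oxidase subunit of phagocytes, Rbbp6 an RNA 3′ processing factor, Ndufa8 a respiratory complex I subunit, Dnajc17 a co-chaperone and Ranbp1 a regulator of the RAN GTPase.
Ncf1, the best-ranked of the 28 (rank 132, 3′ UTR, 30 of its 75 bases, chr5:134221624-134221653, minus strand): GGACtgagactctacagcaaaGGACaGGAC
Rbbp6 (rank 2323, 5′ UTR, chr7:122970615-122970639, plus strand): GGACtgaccgctactgactgcaccg
Ndufa8 (rank 3291, 5′ UTR, chr2:36049296-36049320, minus strand): ttggccagccaaaggGGACttgaag
Dnajc17 (rank 3291, 5′ UTR, chr2:119208763-119208787, minus strand): aattcaagtttGGACtagaaccatg
Ranbp1 (rank 3772, 5′ UTR, chr16:18248669-18248693, minus strand): gggggcggagggaagagcGGACggg
Twnk, shown for a peak without the motif (rank 2107, 5′ UTR, chr19:45005663-45005687, plus strand): atcctatccctctcacggtccaaag
Polr3gl, likewise without it (rank 2323, 5′ UTR, chr3:96594135-96594159, minus strand): agaacgagggctggaagaagaaaag

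The whole Ncf1 peak held 3 copies of GGAC, all of them in the stretch shown. Among the 21 peaks of 25 bases, 4 held GGAC (19%, 5.45 to 41.9), beside 8.22% of all 393804 stretches of 25 bases in the start windows. The longer GGACT was in 3 of the 21 (14.3%, 3.05 to 36.3), beside 2.19% of the stretches. The letters were searched on the strand of the peak only, and any GGACT is also a GGAC. The interval for GGAC spans the share over all stretches, while that for GGACT, on 3 peaks, begins above it. Of these 3, the Dnajc17 peak overlaps a peak on the other strand. Some of the 21 also overlap one another in this way, so they are not independent. Most of each window lies before the start, so the stretches are largely not 5′ UTR sequence, and the difference was not tested. A match describes the letters and does not mark a methylated base.

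Peaks were narrow and most scores lay close together. The median peak spanned 50 bases of genome (quartiles 25 to 75), and 1623 peaks (36.6%) spanned exactly 25. The authors' score, whose scale is not stated, ran from 8.59 to 61.7 with a median of 8.95, and 661 peaks (14.9%) shared the lowest value. Only 39 peaks, in 31 genes, scored 20 or more. Scores were therefore used as ranks within this list, from 1 for the highest. The score rose with width up to 500 bases, from a median of 8.65 for peaks of 25 bases to 11.2 for those of 151 to 500 bases, and the Spearman rank correlation between score and width was 0.74 over the 4432 peaks, given as a description. The 51 peaks (1.15%) that spanned over 500 bases had a median score of 8.82. They made up 33.3% of all bases spanned, which are bases of genome from start to end and can include introns.

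By position, the listed peaks lay mainly in the 3′ UTR and in exons outside the UTRs. The list held only these and the 5′ UTR as classes. The lengths of the 3 classes were not used, so the shares are not densities of the mark. The 3′ UTRs held 2256 peaks (50.9%, 49.4 to 52.4) in 1598 genes, and exons outside UTRs held 1993 (45.0%, 43.5 to 46.4) in 1144 genes. The 5′ UTRs held 183 (4.13%, 3.56 to 4.76) in 160 genes. Most genes carried peaks of a single class: 1225 genes (49.4%) in the 3′ UTR only, 776 (31.3%) in exons only and 84 (3.38%) in the 5′ UTR only. Peaks in both the 3′ UTR and exons, without the 5′ UTR, were found in 321 genes (12.9%), and 23 genes had all 3 classes.

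Scores differed little between the 3′ UTR and exons and were lower in the 5′ UTR. The median score was 8.95 in each of the first 2 classes and 8.82 in 5′ UTRs. Of the 452 peaks in the upper 10% of scores, 243 (53.8%, 49 to 58.4) lay in 3′ UTRs and 12 (2.65%, 1.38 to 4.59) in 5′ UTRs. Peaks of 25 bases made up 48.1% of the 5′ UTR class, 39.1% of the exon class and 33.5% of the 3′ UTR class, so width moved with this difference, and its part was not tested.

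**Figure D1:**
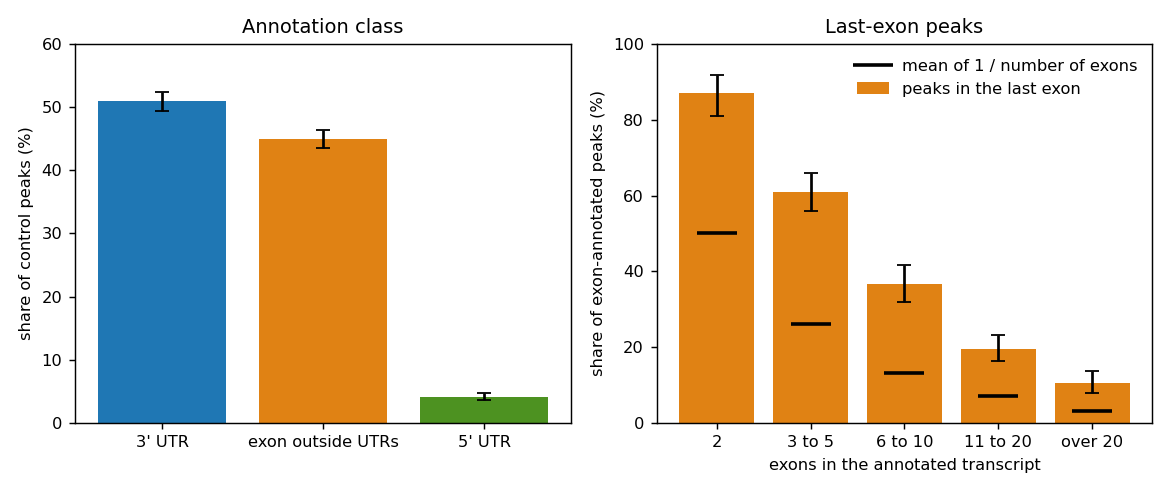
Left, share of the 4432 control peaks (%) by the authors' annotation class; right, share of exon-annotated peaks (%) that lay in the last exon, by the number of exons of the annotated transcript, with horizontal marks for the mean of 1 divided by the exon number. Error bars are exact 95% intervals; the last-exon share is above the mark in every bin, from 87.1% for 2 exons to 10.5% for over 20.

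Among peaks annotated to exons outside the UTRs, last exons were used more often than their number. Internal exons held 1169 of the 1993 peaks (58.7%, 56.5 to 60.8), last exons 671 (33.7%, 31.6 to 35.8), first exons 76 (3.81%) and single-exon transcripts 77 (3.86%). In transcripts of 3 or more exons, 529 of 1753 peaks (30.2%) were in the last exon, although the last exon was on average 11.6% of the exons of those transcripts. The first exon of the same transcripts held 3.14% and the last exon but 1 held 7.59%. Last exons are often longer than others, and exon lengths were not used here.

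The last-exon share fell with the number of exons but stayed above the share by exon number. It was 61.0% (56.0 to 65.9) in transcripts of 3 to 5 exons, against a mean of 26% of exons. It was 19.5% (16.2 to 23.2) for 11 to 20 exons, against 7.06%, and 10.5% (7.86 to 13.7) for over 20 exons, against 3.18%. The exon order of transcripts with several exons was also cut into 5 parts. From the 5′ part to the 3′ part, these held 15.1%, 17.7%, 14.2%, 19.7% and 33.3% of the peaks, with the largest share in the last part. Transcripts of fewer than 5 exons cannot fill all 5 parts. The last part held 638 peaks and last exons held 671, so some last exons were counted in an earlier part. The differences among the earlier parts depend on this cut and were not interpreted.

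Distances to the ends of the RefSeq gene follow in part from the classes, since 2196 of the 4303 peaks measured were 3′ UTR peaks. They are therefore no separate evidence of a lean to the 3′ end. Introns are included, and the exonic share of each part of the span was not used. The end of the span can also lie far from a 3′ UTR: the Ahnak peaks of that class were 58246 and 58084 bases before it. Over the 4303 peaks of 500 bases or less inside a gene, the middle of the peak lay a median of 3037 bases of genome before the gene's 3′ end. The median was 1650 bases (quartiles 631 to 3125) for 3′ UTR peaks, 9216 for exon peaks and 23586 for 5′ UTR peaks. The last 10% of the gene span held 43.8% of all peaks, 69.6% of 3′ UTR peaks and 18.2% of exon peaks. Of the 5′ UTR peaks, 65 of 170 (38.2%, 30.9 to 46.0) lay within 1 kb of the gene's start, against 3.49% of all peaks. The first 10% of the span held 44.1% of the 5′ UTR peaks. Their median position was 12.9% along the span, and 80% of them lay within its first 50.4%, so the class was not confined to gene starts.

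The deposited distance to a start site says less about the transcript, because it refers to the nearest start of any gene. Its median was 2625 bases (quartiles 0 to 9079), and 1083 peaks (24.4%) had a negative value, meaning upstream of that start. The nearest gene was on the other strand for 509 peaks (11.5%), and 996 placed peaks (22.8%) belonged to a gene other than the one named as nearest. The top-scored peak, in the 3′ UTR of Itga4, was for example listed with Cerkl.

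**Figure D2:**
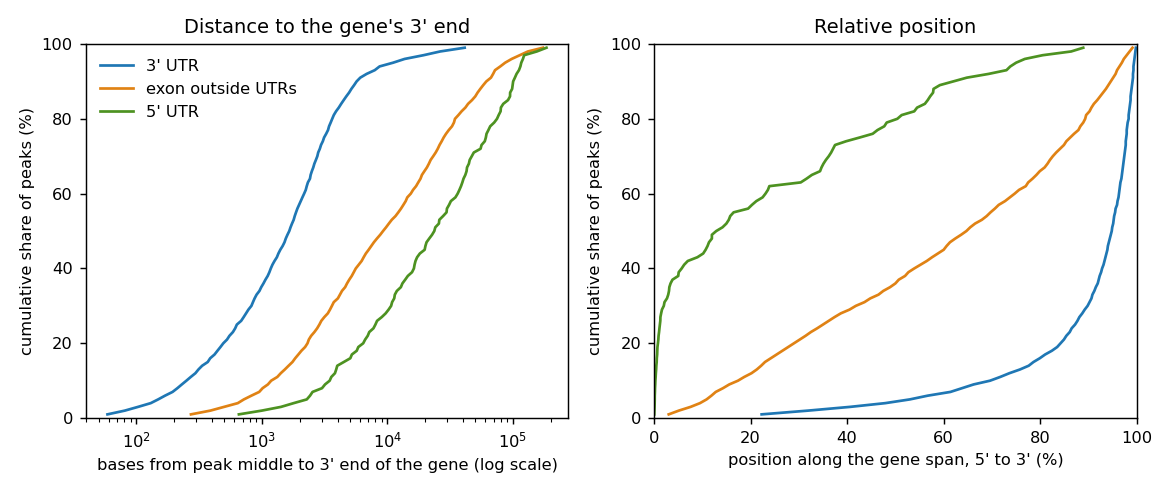
Cumulative share of control peaks (%) by distance from the peak's middle to the 3′ end of its gene (left, bases, log scale) and by position along the gene span from 5′ to 3′ (right, %), for 3′ UTR, exon and 5′ UTR peaks. The 3′ UTR curve reaches its middle at 1650 bases from the end, the exon curve at 9216 and the 5′ UTR curve at 23586.

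Most marked genes had a single peak. The 4371 peaks placed in a gene fell in 2482 genes, of which 1519 (61.2%) had 1 peak, 535 had 2, 239 had 3 and 74 had 4. The 963 genes with at least 2 (38.8%, 36.9 to 40.7) held 65.2% of placed peaks. The 115 genes with at least 5 peaks (4.63%) held 17.6%. Genes with more peaks also had better-ranked ones: the median best rank was 2323 for genes with 1 peak, 540 for 4 peaks and 168 for the 10 genes with 10 or more. A gene with more peaks has more chances of a high score, which this order includes.

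Gene span was only loosely related to the number of peaks, with a Spearman rank correlation of 0.13 over the marked genes. Genes with at least 2 peaks made up 31.1% of the marked genes with the shortest spans (12.7 kb or less) and 46.1% of those with the longest (61.2 kb or more). Neighbouring peaks of a gene were close, with a median gap of 350 bases of genome (quartiles 100 to 2099). Of the 1883 gaps, 478 (25.4%) were 100 bases or less, and 258 (13.7%) were over 10 kb, introns included.

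**Figure D3:**
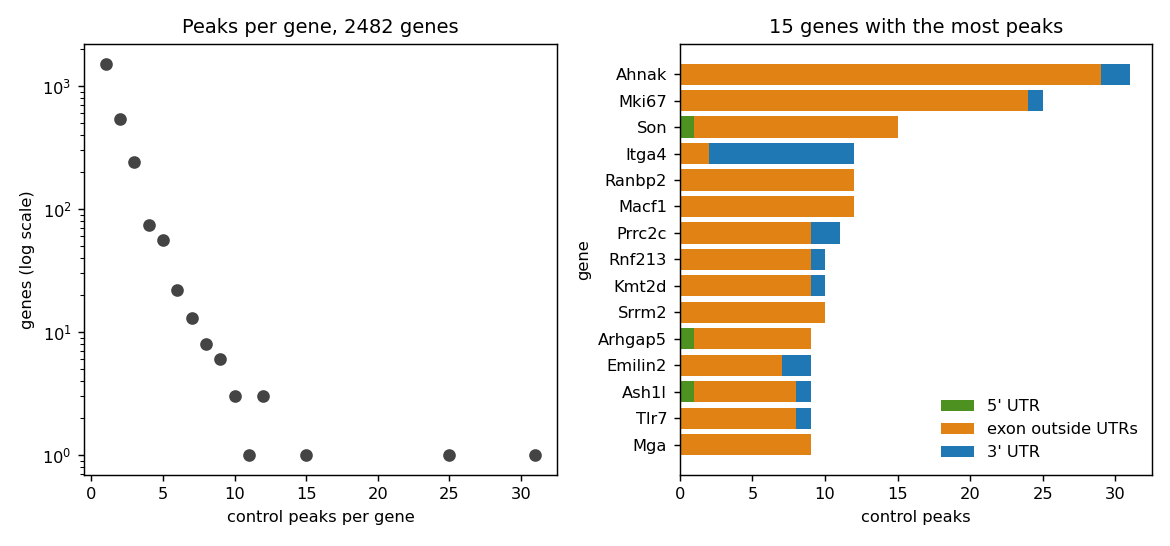
Left, number of genes (log scale) against control peaks per gene for the 2482 genes with a peak; right, peaks of the 15 genes with the most, split by annotation class. Ahnak (31) and Mki67 (25) stand far to the right, and Itga4 alone among the 15 has most of its peaks in the 3′ UTR.

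Ahnak, Mki67 and Son had the most peaks, and in several of the 15 leading genes most peaks lay in 1 exon. Exon lengths were not used, so a long exon could not be told apart from a densely marked one. The median gap was 150 bases in Mki67 and 288 in Son, beside 350 over the gaps of all genes. Ahnak, a giant scaffold protein beneath the plasma membrane, had 31 peaks, 29 of them in exon 5 of 5 and 2 in the 3′ UTR. They lay in a stretch of 17.1 kb on chromosome 19 (9001789 to 9018863) with a median gap of 338 bases. Their scores ran from 8.59 through a median of 9.26 to 30, so a few high peaks stood among many near the lowest score. Mki67, the Ki-67 proliferation antigen that coats mitotic chromosomes, had 25 peaks, 22 of them in exon 12 of 14, with scores from 8.59 through 9.14 to 17.9. Son, a protein of nuclear speckles needed for splicing, had 15 peaks, of which 14 were in exon 3 of 12 and 1 in the 5′ UTR. Its highest score was 10.4, far under that of Ahnak.

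The same pattern held in several of the genes that followed. Ranbp2, a nuclear pore protein, had 12 peaks with 9 in exon 20 of 29, and Srrm2, another speckle protein, had all of its 10 in exon 11 of 15. Prrc2c had 11 peaks with 6 in exon 16 of 35, and Arhgap5, a GTPase-activating protein, had 9 with 7 in exon 2 of 7. In Emilin2, an extracellular matrix glycoprotein, 6 of 9 peaks were in exon 4 of 8, and in Rnf213, a ubiquitin ligase, 6 of 10 were in exon 28 of 67. Other genes spread theirs: Macf1, a linker of microtubules and actin, had 12 peaks with 5 in exon 36 of 98, and a further peak in exon 40 spanned over 500 bases. Kmt2d, a histone H3 methyltransferase, had 10 with 4 in exon 35 of 55. Ash1l, also a histone methyltransferase, had 9 over a stretch of 111 kb, and Mga, a MAX-binding transcription factor, had 9 over 61.5 kb.

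Itga4 stood apart from these in both position and score. It encodes integrin alpha 4, the subunit with which leukocytes bind VCAM1 and fibronectin. Its 12 peaks comprised 10 in the 3′ UTR and 1 each in exons 10 and 14 of 28. The peak at chromosome 2, 79326746 to 79326995, plus strand, scored 61.7 and ranked 1, and the next peak upstream scored 35.4 and ranked 6. The other 3′ UTR peaks scored 23.9, 22.2, 18.7, 15.0, 14.0, 9.02, 8.65 and 8.65, so 7 of the 10 scored at or above 14.0. Both exon peaks were near the lowest score, at 9.04 and 9.02. The median rank of its peaks was 123, against 1328 for Ahnak and 1581 for Mki67.

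The next ranks after Itga4 went to BC005537, Mcl1, Eif4g1 and Neat1. BC005537 ranked 2 (43.9, chromosome 13, 3′ UTR). Mcl1, an anti-apoptotic BCL-2 protein of short half-life, ranked 3 with a 3′ UTR peak of 41.6 (chromosome 3, 95660784 to 95660983), and its only other peak, in exon 2 of 3, scored 29.3 and ranked 11. Both of its peaks were thus among the highest of the list. Eif4g1, the scaffold of the cap-binding translation factor, ranked 4 with a 3′ UTR peak of 38.0, while its 6 peaks had a median of 9.06. Neat1, the long non-coding RNA that builds paraspeckles, had a peak of the same score.

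Hspa5, the endoplasmic reticulum chaperone BiP, had 4 exon peaks scoring 29.8, 19.6, 13.6 and 13.6, with 3 of them in exon 9 of 9. H2ax, the histone variant phosphorylated at DNA breaks, had a 3′ UTR peak of 29.8 and another of 8.98. St8sia4, a polysialyltransferase, reached 30.7, and Spred1, an inhibitor of Ras to ERK signalling, reached 28.9 in exon 7 of 7. Nup153, a nuclear pore protein, scored 28.7 in exon 16 of 22 and 22.7 in exon 18, so a high score was not limited to 3′ ends. Ppp4r3a, a regulatory subunit of protein phosphatase 4, scored 27.5 in exon 4 of 15.

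In the rest of the 20 genes with the highest-scored peaks, top scores lay from 22.1 to 23.9. They were Serbp1, an RNA-binding protein; Ctsb, the lysosomal protease cathepsin B; Uck2, a uridine-cytidine kinase; Ncl, nucleolin; Tlr2; Tmsb4x, an actin-sequestering peptide; Mbnl1, a splicing regulator; and Erp29, an endoplasmic reticulum chaperone. All but Tlr2 had that peak in the 3′ UTR. Tmsb4x had no other peak, whereas Mbnl1 had 8, all in the 3′ UTR and with a median score of 8.85.

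In 5′ UTRs the highest scores were far lower. Arhgap5 led with 14.3 (rank 125), followed by Nrp2, a semaphorin and VEGF co-receptor, with 12.7 (rank 181). Ddx6, a helicase of mRNA decay, and Mrps6, a mitochondrial ribosomal protein, both scored 12.1 (rank 202). Of these, only the Nrp2 peak lay within 1 kb of the RefSeq gene start, at 792 bases; the Ddx6 peak was 4234 bases of genome downstream, introns included.

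Relative to gene span, Cd14 was the most densely marked of the genes with 3 or more peaks. Cd14, the co-receptor that hands lipopolysaccharide to TLR4, had 7 peaks in a span of 1.75 kb, or 4.0 per kb. They scored 18.0, 16.2, 10.9, 9.74, 8.65, 8.65 and 8.59 and covered all 3 classes, with 5 in exon 2 of 2. Sephs2, a selenophosphate synthetase, followed with 2.75 per kb (6 peaks), Exosc6, an RNA exosome subunit, with 2.26 (3 peaks, all 3′ UTR) and Hnrnpa0, an RNA-binding protein, with 1.87 (5 peaks). The measure favours genes with few or short introns.

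Across chromosomes, 2448 of 21883 protein-coding RefSeq genes (11.2%) had a peak, and the share was lowest on the sex chromosomes. Chromosome 12 had the highest share (112 of 679, 16.5%, 13.8 to 19.5), followed by 3 and 9 at 15.1% each, whose intervals overlap that of 12. Chromosome 7 had 6.40% (5.38 to 7.56) and was the lowest autosome. Chromosome X had 33 of 966 (3.42%, 2.36 to 4.76), and Y had 1 of 256, Kdm5d, a histone demethylase. Within X the peaks gathered on Tlr7 with 9, Cybb, the catalytic subunit of the phagocyte NADPH oxidase, with 8, and Rlim, a ubiquitin ligase, with 5.

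Part of the order of autosomes moved with the gene families that a chromosome carries. When 1463 olfactory and vomeronasal receptor genes were left out, chromosome 9 led with 16.9% and chromosome 7 rose to 8.06%, still the lowest autosome. X had 3.44%, but the step could hardly change the sex chromosomes, since it kept 959 of 966 genes on X and all 256 on Y. Other gene families were not left out. The share of peaks in 3′ UTRs ran from 36.0% on chromosome 19 to 63.5% on chromosome 8 among autosomes, and that of chromosome 19 was 41.8% without Ahnak. No peak was listed on the mitochondrial chromosome.

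**Figure D4:**
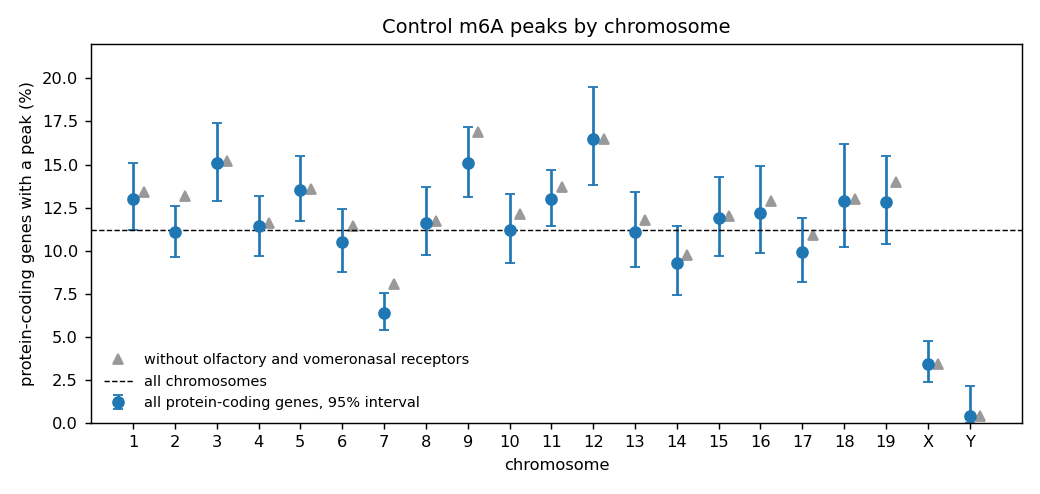
Share of protein-coding RefSeq genes with at least 1 control peak (%) by chromosome; circles are all such genes with exact 95% intervals, triangles the share without olfactory and vomeronasal receptors, and the dashed line is 11.2% over all chromosomes. X (3.42%) and Y (0.391%) lie far below the line, and 7 (6.40%) is the lowest autosome.

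Gene groups were read against that background, in which 11.2% of protein-coding genes had a peak, with a median of 1.00 peak per marked gene. The background includes genes that macrophages do not express, and long genes were marked more often: 4.50% of coding genes with a span of 5.67 kb or less and 16% of those of 44.3 kb or more. Of 43 groups, 29 had an interval wholly above 11.2% and 2 wholly below it. The 29 include the nuclear long non-coding RNAs, which that background of protein-coding genes does not cover. The groups overlap in part, and neither expression nor length was matched.

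The machinery of the mark was itself marked. In the methyltransferase complex and cap methyltransferase group, 6 of 12 genes had a peak (50%, 21.1 to 78.9), and 11 of their 13 peaks were in exons. Rbm15, which guides the complex to RNA, had 5 peaks, all in exons, and Zc3h13, Virma and Rbm15b had 2 each. No peak was listed for Mettl3 or Mettl14, the core pair of the complex. Among readers and demethylases it was 8 of 16 (50%, 24.7 to 75.3), led by Ythdf3 with 6 peaks and a best rank of 42, Prrc2a with 6 and Ythdf2 with 4. Fto had 1 peak at the lowest score, and none was listed for Alkbh5.

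Chromatin regulators were among the most often marked. Of histone methyltransferases, 18 of 30 had a peak (60.0%, 40.6 to 77.3), with 49 of 61 peaks in exons. After Kmt2d and Ash1l came Setd2 and Kmt2a with 6 each. Chromatin remodellers had 17 of 35 (48.6%, 31.4 to 66.0) and a median of 3.0 peaks per marked gene. Bptf and Arid1a, subunits of the NURF and BAF complexes, had 6 each. Acetyltransferases, deacetylases and co-repressors had 15 of 33 (45.5%), with Kat6a at 6 peaks and Ep300 at 4, and histone demethylases had 7 of 21 (33.3%), with Jmjd1c at 6. Mediator subunits were nearer the background, with 5 of 32 (15.6%, 5.28 to 32.8), although Med13 had 4 peaks. With the nearest gene as listed, 3 of these 32 subunits had a peak. DNA methylation and TET enzymes had 5 of 13 (38.5%), Tet3 with 2 peaks, and 3 of 13 with the nearest gene as listed.

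Few core and linker histones were marked, 4 of 101 genes (3.96%, 1.09 to 9.83). H1f0, a linker histone associated with differentiated cells, had 4 peaks, all in the 3′ UTR, with a best rank of 29, and H2ax had 2. H1f3 and H2bc18 had 1 each. Most replication-dependent histone messages lack a poly(A) tail and are short, near-identical copies, so peaks may not be assigned to a single gene, and whether this bears on the count was not tested. Genes of the DNA damage response had 16 of 29 (55.2%, 35.7 to 73.6), with Rif1 at 3 peaks and Mdm2 and Mdm4, the inhibitors of p53, at 2 each.

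Among the receptors and adaptors of innate sensing, most peaks were those of Tlr7, Tlr2 and Cd14, with 9, 8 and 7. Tlr4 had 2, and Tlr1, Tlr6 and Tlr13 had 1 each. Of Toll-like receptors and adaptors, 11 of 29 had a peak (37.9%, 20.7 to 57.7), and 29 of their 39 peaks were in exons. Tlr7, the endosomal sensor of single-stranded RNA, had 9, of which 8 were in exon 5 of 5, with scores from 8.59 through 9.40 to 10.1. Tlr2, the receptor for lipoproteins, had 8 peaks, all in exon 3 of 3, scoring 22.6, 17.1, 11.2, 9.81, 9.57, 9.26, 9.26 and 8.59. Both receptors thus carried their peaks in the last exon, and those of Tlr2 reached higher scores. Tab2, an adaptor of the TAK1 kinase, had 3.

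NF-kB subunits, inhibitors and kinases had 3 of 20 (15.0%, 3.21 to 37.9), namely Nfkbia, Cyld and Nfkb1 with 1 peak each. Cytokines and chemokines had 4 of 30 (13.3%, 3.76 to 30.7), namely Tnf, Ccl3, Spp1 and Ccl9, each with 1 peak in the 3′ UTR. The intervals of these 2 groups overlap that of the receptors and span the background. Interferon, JAK-STAT and SOCS genes had 7 of 31 (22.6%), with Ifnar2 at 3 peaks. Of macrophage identity genes, 10 of 30 had a peak (33.3%, 17.3 to 52.8): Mpeg1, the pore protein perforin-2, had 8, and Csf1r, the receptor for the growth factor of macrophages, had 4 with a best rank of 95. Of integrins, 4 of 25 had a peak, and 12 of their 15 peaks were those of Itga4.

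**Figure D5:**
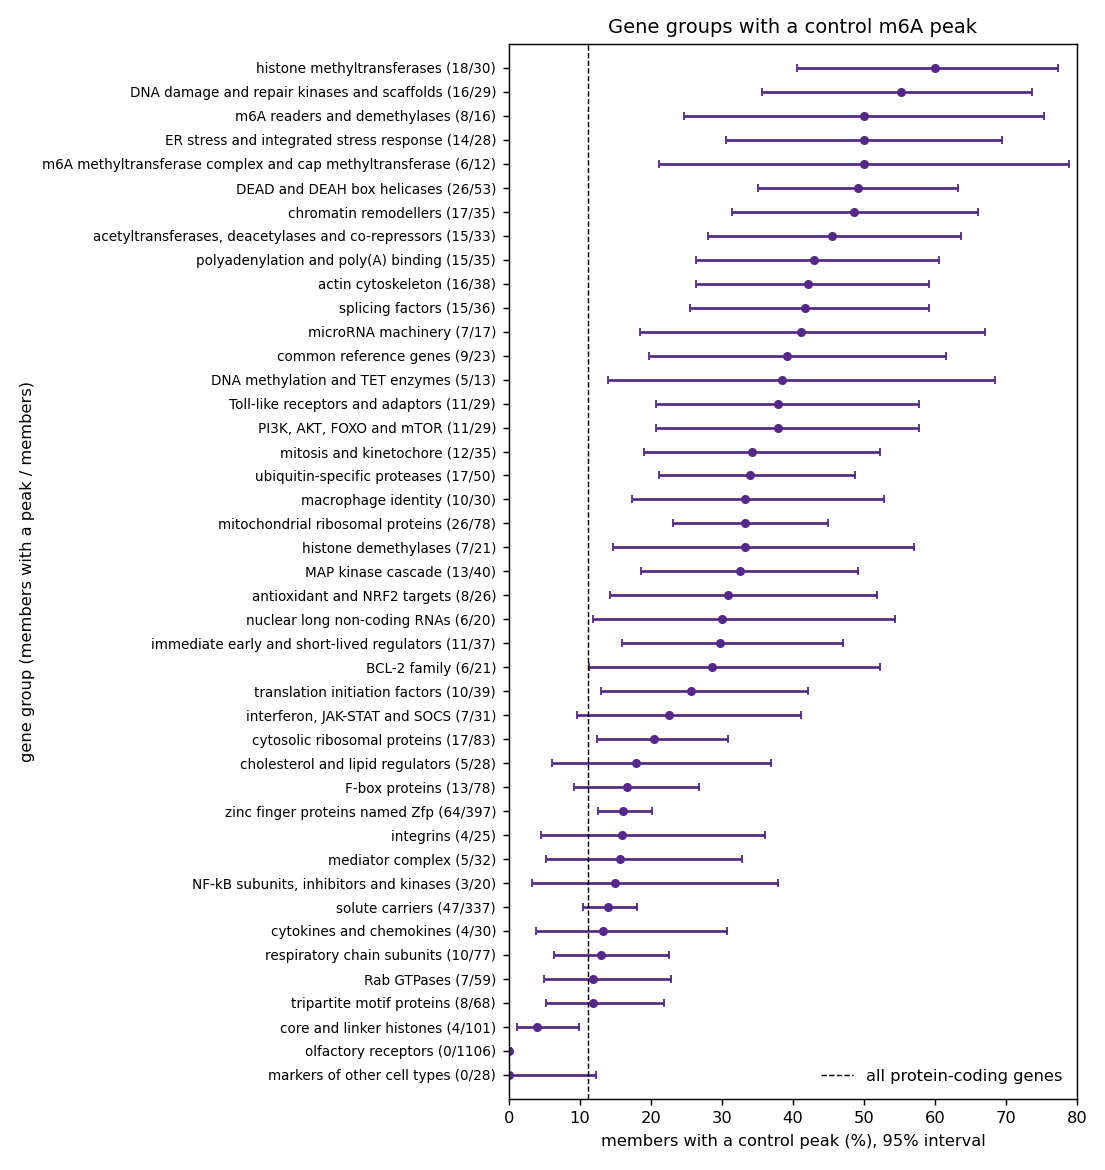
Share of each of 43 gene groups with at least 1 control peak (%), with exact 95% intervals and, in brackets, members with a peak and members; the dashed line is the 11.2% over all protein-coding genes. Histone methyltransferases lead at 60.0%, and core and linker histones (3.96%) and olfactory receptors (0) lie below the line.

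RNA-handling groups lay above the background as well. DEAD and DEAH box helicases had 26 of 53 (49.1%, 35.1 to 63.2), with Ddx21 at 5 peaks. Polyadenylation and poly(A) binding factors had 15 of 35 (42.9%), with Rbbp6 at 5, and splicing factors 15 of 36 (41.7%), of whose 44 peaks Son and Srrm2 held 15 and 10. The microRNA machinery had 7 of 17 (41.2%), with Tnrc6b at 3. Translation initiation factors had 10 of 39 (25.6%, 13 to 42.1), led by Eif3a with 7 peaks and Eif4g1 with 6.

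Ribosomal and respiratory genes differed among themselves. Mitochondrial ribosomal proteins had 26 of 78 (33.3%, 23.1 to 44.9), and 23 of their 31 peaks were in 3′ UTRs. Cytosolic ribosomal proteins had 17 of 83 (20.5%, 12.4 to 30.8), with Rps3 at 3 peaks. These 2 intervals overlap. Respiratory chain subunits had 10 of 77 (13%, 6.41 to 22.6), close to the background. Cytosolic ribosomal proteins have many processed pseudogenes, and whether peaks were split between copies was not tested.

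Stress, survival and growth groups were marked at intermediate to high shares. Genes of the endoplasmic reticulum and integrated stress responses had 14 of 28 (50%, 30.6 to 69.4), with Ppp1r15b, a phosphatase subunit acting on eIF2 alpha, and Canx, the chaperone calnexin, at 5 peaks each. Of antioxidant genes and NRF2 targets, 8 of 26 had a peak (30.8%), with 4 each on Nfe2l2, which encodes NRF2, and Keap1, its inhibitor. The BCL-2 family had 6 of 21 (28.6%), with Bcl2l1 at 3 peaks and Mcl1 at 2. Immediate early and other short-lived regulators had 11 of 37 (29.7%, 15.9 to 47.0), of whose 16 peaks 12 were in 3′ UTRs, Jun having 2.

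Among signalling and cell structure groups, PI3K, AKT, FOXO and mTOR genes had 11 of 29 (37.9%), with 7 peaks on Pik3cg, the leukocyte catalytic subunit. With the nearest gene as listed, 6 of these 29 had a peak. MAP kinase cascade genes had 13 of 40 (32.5%), including Mapk6 with both of its peaks in the 5′ UTR. Mitosis and kinetochore genes had 12 of 35 (34.3%), and 25 of their 49 peaks were those of Mki67 and 7 those of Cenpf. Actin cytoskeleton genes had 16 of 38 (42.1%), with Cap1 at 3 peaks, and genes often used as expression references had 9 of 23 (39.1%), with Tubb5 at 5. Cholesterol and lipid regulators had 5 of 28 (17.9%).

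Large families ran from shares above the background to none. Ubiquitin-specific proteases had 17 of 50 (34.0%), with Usp1 at 3 peaks. Zinc finger genes named Zfp had 64 of 397 (16.1%, 12.6 to 20.1), led by Zfp871 with 8 peaks. Solute carriers had 47 of 337 (13.9%, 10.4 to 18.1): Slc38a2, an amino acid carrier, had 7 with 6 in the 3′ UTR, and Slc16a1, a lactate carrier, had 7 with 6 in exons. F-box proteins had 13 of 78 (16.7%), with Fbxw7 at 3 peaks, Rab GTPases 7 of 59 (11.9%; 4 with the nearest gene as listed), with Rab7b at 2, and tripartite motif proteins 8 of 68 (11.8%), with Trim25 at 2. Of 1106 olfactory receptor genes, 0 had a peak, which allows a share of up to 0.271% by the same limit of 3 counts.

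Long non-coding RNAs accounted for 42 peaks in 26 genes. Of 20 listed nuclear ones, 6 had a peak (30%, 11.9 to 54.3). No share over all long non-coding RNA genes was computed, and the background above covers protein-coding genes only. Neat1 had 5 peaks scoring 38.0, 20.7, 14.6, 10.2 and 8.65 within 2.12 kb near its 5′ end, the top peak being 1522 bases from the start. Malat1, a nuclear speckle RNA, had 3 peaks scoring 19.8, 17.8 and 10.7, and Tug1 had 7, scoring from 8.59 to 21.5 over both of its exons. Each of these 3 RNAs thus had a peak of high rank (4 in Neat1, 28 in Tug1 and 43 in Malat1), while Kcnq1ot1 had a single peak of rank 1079.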

How the data were processed

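The list was deposited by the authors with positions, lengths, strand, annotation class, nearest gene and a score per peak whose scale is not stated. The submitters' processing notes name, with no role, Trim Galore 0.6.5, HISAT2 2.1.0, ChIPseeker 1.26, HOMER 4.11 and others, with GRCm38 and mm10 as builds. Not given in the sources used here are the method of calling peaks, its threshold, the part of the input and the origin of the strand, all of which bear on what is listed.

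Each peak was placed in the gene of its exon annotation (43.6%), else in the nearest gene if inside its listed transcript on the same strand (19.5%), else in the single RefSeq gene whose whole span lies over it (35.5%), which can again be the nearest gene; 61 peaks had none. Genes without a known strand took peaks of either strand. Shares have exact Clopper-Pearson 95% intervals (SciPy 1.17.1). All symbols of the gene lists matched RefSeq (GRCm38.p6).

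The members and gene lists were chosen with earlier results of these data known, and 1 gene that is no histone was removed from the histone list after its value was seen. Named genes are the 15 with the most peaks, the 20 with the highest-scored peak, up to 4 per list by number of peaks, the 4 highest in 5′ UTRs and the 4 with most peaks per kb. Members told beyond these were chosen after their values were seen. Alternatives were a 500 bp width limit, a minimum at the median score, merging within 100 bp and the nearest gene as listed. A few members of the lists are not reported here.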

Additional observations from a re-analysis of the deposited data

How the results depend on the processing

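No paired analysis was possible because the control has 1 immunoprecipitated library. Keeping only peaks scored at or above the median left 2302 peaks in 1505 genes, with 53.1% in 3′ UTRs and 3.34% in 5′ UTRs. Among exon peaks 36.7% were then in last and 55.1% in internal exons, 30.5% of genes had 2 or more peaks, the leading chromosome share was 11.6%, and median scores were 9.38 in 3′ UTRs, 9.40 in exons and 9.31 in 5′ UTRs. Members with a peak over all groups fell to 337, and 21 of 43 group counts moved by over 1.5 times. These counts fall by construction, since peaks were removed. Merging peaks within 100 bp gave 32.9% of genes with 2 or more peaks and a median gap of 650 bases. With the nearest gene as listed, 5 of 43 group counts moved by over 1.5 times: PI3K, AKT, FOXO and mTOR from 11 to 6, Rab GTPases from 7 to 4, mediator from 5 to 3, DNA methylation and TET enzymes from 5 to 3, and olfactory receptors from 0 to 4. For the 15 main values, a move meant leaving the interval or, for counts without one, a change of over 1.5 times. Leaving out peaks over 500 bp moved none of them, nor did leaving out peaks that overlap a peak on the other strand. The latter, and leaving out receptor genes, were chosen after seeing the data. Without a second library, depth or input, no value here has an error between cultures.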

Other observations

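Some peaks lay opposite one another. In 97 pairs, holding 191 peaks (4.31%, 3.73 to 4.95), a peak overlapped a peak on the other strand, whereas 0 peaks overlapped on the same strand. Both peaks were annotated to 3′ UTRs in 67 pairs, the scores were equal in 49 pairs, and in 43 pairs 1 peak had no gene on its strand. Among them, Tcp1, a subunit of the cytosolic chaperonin, and Acat3, an acetyl-CoA acetyltransferase, converge at their 3′ ends and had opposed peaks of rank 132 each. The sequences of Twnk and Dnajc17 shown above are from such pairs, with Mrpl43 and Zfyve19. Peaks of 6 genes were on both strands. The origin of these pairs was not tested.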
